A study of Mus with 5 samples.

Results

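The expression of 5 *Adamts* genes, *Adamts1* (ENSMUSG00000022893), *Adamts5* (ENSMUSG00000022894), *Adamts9* (ENSMUSG00000030022), *Adamts12* (ENSMUSG00000047497) and *Adamts15* (ENSMUSG00000033453), was followed in E14.5 mouse hearts with myocardial *Bmp2* gain and in WT hearts. The genes were chosen by identifier with results of this comparison already known, so the measured values that selected them are those of the comparison itself. 2 of the 5 (*Adamts12* and *Adamts15*) are in the list of changed genes that the authors made from these same libraries, and the other 3 are not. All 5 identifiers were present among the 12857 genes of the table, from which the authors had left out genes with low values. The values below therefore describe these genes and are not independent evidence of a change in the family, and the choice of genes used no threshold.

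RNA came from ventricles and valves of E14.5 hearts, the atria having been removed, in pools of 4 embryos. The transgenic pools (n = 3) were *Nkx2.5Cre/+;Bmp2tg/+* (Nkx2.5CRE;Bmp2 in the labels), and the control pools (n = 2) were labelled WT. The authors made 3 pools per genotype from 12 hearts and excluded 1 WT pool. The transgene sits in the *Rosa26* locus, where a CAG promoter is separated from mouse *Bmp2* cDNA (linked to eGFP by an IRES) by a stop cassette between loxP sites, and the *Nkx2.5* Cre allele removes the cassette in the myocardium. The labels do not say whether the WT pools carried the Cre allele. The cross that the study lists yields embryos that all carry it, and this was not tested here; if the WT pools lacked it, its effect and that of the transgene cannot be told apart. *Bmp2* itself stood at 23.0, 27.1 and 23.3 counts per 1000000 reads (CPM) in transgenic pools 1, 2 and 3 and at 14.1 and 10.2 CPM in WT pools 1 and 2 (log2 fold change 0.99, limma adjusted p 0.000712). The Bmp-responsive genes *Smad6*, *Smad7* and *Id2* were higher in each transgenic pool than in both WT pools. All of these, *Bmp2* included, are in the authors' list of genes changed in these same libraries, so they are not an independent check. The pools held 7427905 to 10564780 recovered reads, and a count of 0 would allow up to 3 reads, or 0.287 to 0.402 CPM, for counting error only.

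ADAMTS proteins are secreted zinc metalloproteases with thrombospondin repeats, made as proenzymes that furin-type convertases activate. *Adamts1*, *Adamts5*, *Adamts9* and *Adamts15* encode proteoglycanases that can cleave versican or aggrecan, the large chondroitin sulfate proteoglycans that bind hyaluronan. Versican and hyaluronan fill the cardiac jelly and the endocardial cushions, and their removal accompanies trabeculation and the shaping of the valves. *Adamts12* belongs to another branch, closest to *Adamts7*, and its product can cleave cartilage oligomeric matrix protein.

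Relative to the WT level, the expression of *Adamts12* differed most between the genotypes. Its mean in transgenic hearts was 57.3% of the WT mean, and it was the 1 gene of the 5 that passed the test across all genes. *Adamts15* stood at 74.3% of the WT mean and fell just short of passing. *Adamts1* and *Adamts9* stood at 86.8% and 89.4% of the WT means without passing, and *Adamts5* had nearly equal means in both groups.

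*Adamts12* was measured at 8.42, 8.05 and 7.75 CPM in transgenic pools 1, 2 and 3, from 88, 75 and 62 reads, and at 13.3 and 14.9 CPM in WT pools 1 and 2, from 126 and 111 reads. The 3 transgenic pools were all below both WT pools, and they lay within a narrow band. The means were 8.07 ± 0.332 CPM (SD, n = 3) and 14.1 ± 1.10 CPM (SD, n = 2). The log2 fold change of transgenic over WT, on the log2(CPM + 0.5) scale, was -0.77 with a standard error (SE) of 0.14, and limma gave a Benjamini-Hochberg adjusted p of 0.00595 over all genes. The log2 fold change of *Adamts12* ranked 51 of 12857 from the lowest. The call needed both WT pools, and the log2 fold change was -0.84 without WT pool 1 and -0.69 without WT pool 2. In these fits 1 WT pool remained and far fewer genes were called, so the lost call is not particular to *Adamts12*. It was also not called by limma without the variance trend (adjusted p 0.0663). Over all 16 alternative settings the adjusted p ran from 5.67e-05 to 0.154.

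*Adamts15*, a proteoglycanase gene, was measured at 28.2, 24.3 and 32.6 CPM in transgenic pools 1, 2 and 3 and at 41.2 and 35.1 CPM in WT pools 1 and 2. The groups did not overlap, although transgenic pool 3 came close to WT pool 2. The means were 28.4 ± 4.19 CPM (SD, n = 3) and 38.2 ± 4.32 CPM (SD, n = 2), and the log2 fold change was -0.43 (SE 0.11) with a limma adjusted p of 0.0558. Without transgenic pool 3 the log2 fold change was -0.53 and the adjusted p 0.0152. Without WT pool 1 the log2 fold change was -0.31 and the adjusted p 0.426. Over the 16 alternatives the adjusted p ran from 0.00186 to 0.426, and 5 of them called the gene, including 3 that kept all pools and used no block: a mean of at least 5 CPM and both edgeR tests.

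*Adamts1*, whose product cleaves versican during trabeculation, was measured at 104.3, 96.8 and 108.8 CPM in transgenic pools 1, 2 and 3 and at 120.6 and 117.5 CPM in WT pools 1 and 2. All transgenic pools were below both WT pools, but the distance was small. The means were 103.3 ± 6.04 CPM (SD, n = 3) and 119.1 ± 2.18 CPM (SD, n = 2), with a log2 fold change of -0.21 (SE 0.06) and a limma adjusted p of 0.0956.

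*Adamts9*, which encodes the versican-cleaving relative of the nematode protease GON-1, was measured at 84.6, 75.9 and 85.0 CPM in transgenic pools 1, 2 and 3 and at 90.3 and 92.9 CPM in WT pools 1 and 2. Its groups did not overlap either. The means were 81.9 ± 5.16 CPM (SD, n = 3) and 91.6 ± 1.84 CPM (SD, n = 2), with a log2 fold change of -0.16 (SE 0.07) and a limma adjusted p of 0.218. No setting tried called *Adamts9*.

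*Adamts5*, which encodes an aggrecanase that also acts on versican in the developing valves, was measured at 21.1, 23.0 and 27.4 CPM in transgenic pools 1, 2 and 3 and at 22.7 and 25.1 CPM in WT pools 1 and 2. Both the lowest and the highest pool were transgenic, so the groups overlapped. The means were 23.8 ± 3.21 CPM (SD, n = 3) and 23.9 ± 1.65 CPM (SD, n = 2), with a log2 fold change of -0.01 (SE 0.11) and a limma adjusted p of 0.976. The sign changed with the pools used, to 0.070 without transgenic pool 1, 0.01 without transgenic pool 2 and 0.06 without WT pool 2. At this SE, modest differences in *Adamts5* were not detectable.

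**Figure D1:**
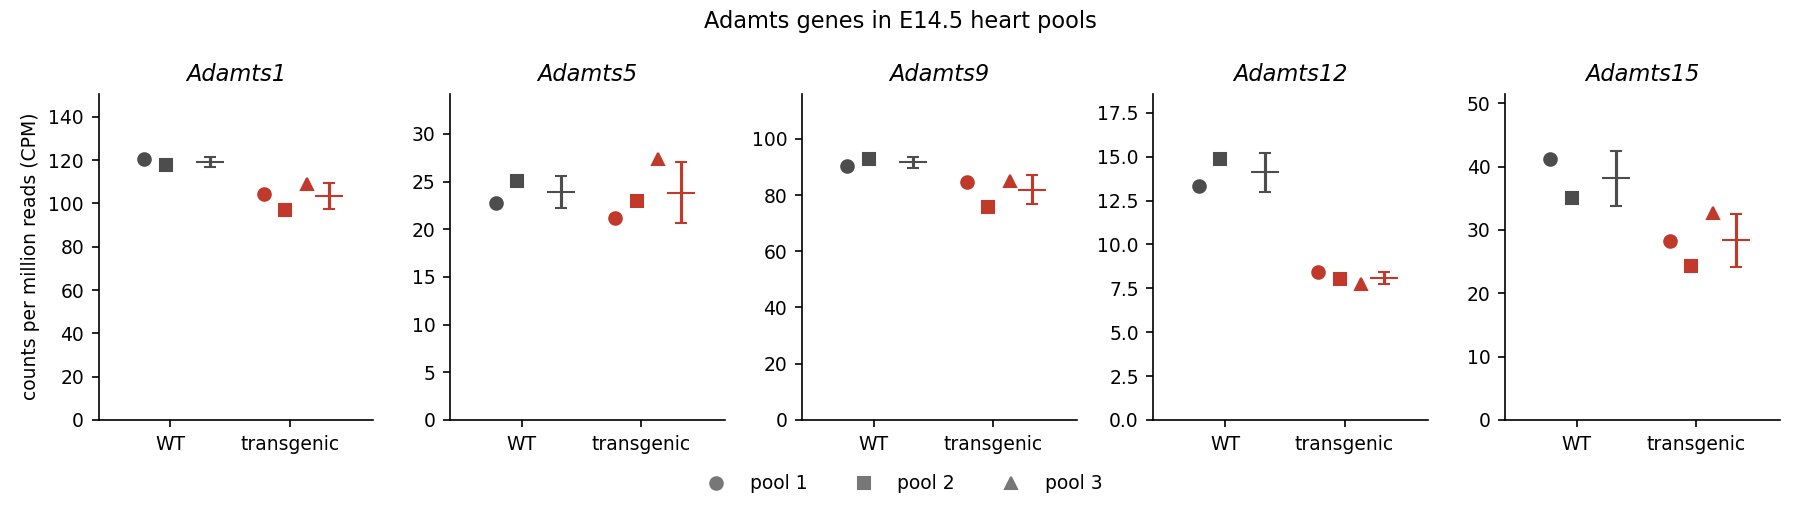
Expression of the 5 *Adamts* genes in CPM (vertical axis, from 0, a separate scale for each gene) in the 2 WT pools (grey) and the 3 transgenic pools (red). Marker shape gives the pool number, and the horizontal dash and bar give the mean and SD. Relative to its own level *Adamts12* shows the widest gap, whereas *Adamts5* pools overlap. The transgenic pools of *Adamts12* lie between 7.75 and 8.42 CPM and its WT pools at 13.3 and 14.9 CPM.

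Of the 5 genes 1 was called by limma at an adjusted p of 0.05, and it was lower in transgenic hearts. Among all 12857 genes 2.82% were called in either direction and 1.59% were called lower. In 4 of the 5 genes every transgenic pool was below both WT pools, an arrangement that 18.0% of all genes showed. The 5 log2 fold changes were all negative, with a median of -0.21, while the median over all genes was 0.0045. An unadjusted p under 0.05 was reached by 4 of the 5 genes and by 17.7% of all genes. Because the genes were chosen with this comparison known, nothing is read from these counts.

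**Figure D2:**
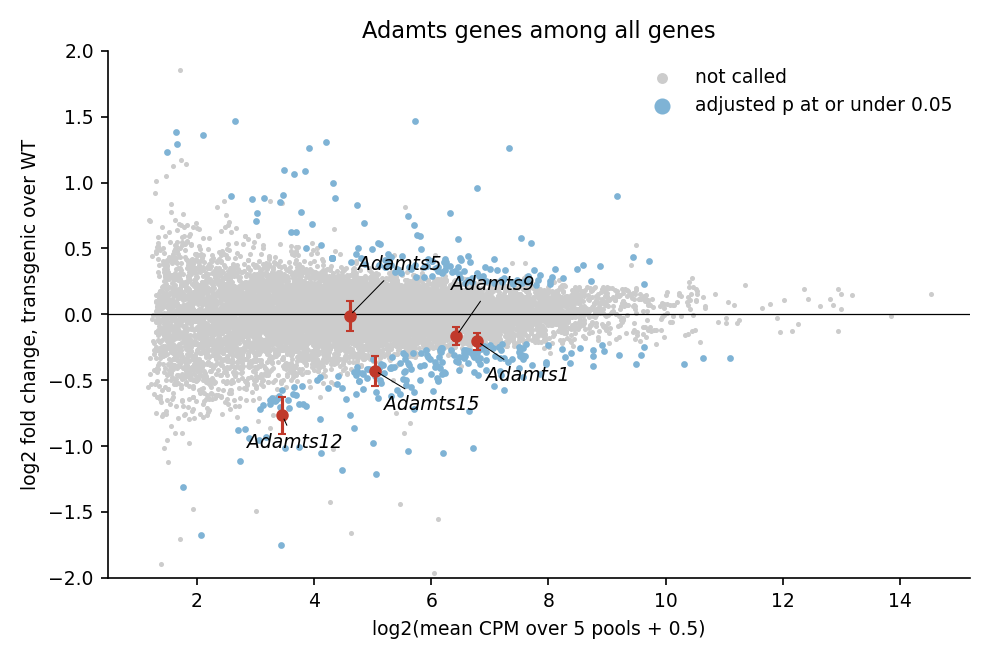
Log2 fold change, transgenic over WT (vertical axis), against log2 of the mean CPM over 5 pools plus 0.5 (horizontal axis) for all genes, with those at or under an adjusted p of 0.05 in blue and the 5 *Adamts* genes in red with their SE. *Adamts12* lies at -0.77 among the called genes of low level, *Adamts15* at -0.43 lies just short of the threshold, and 17 genes fall outside the vertical axis.

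The spread between pools was compared with the spread that counting reads would give. For *Adamts12* the variance between transgenic pools was 0.125 times the counting variance, and between WT pools 0.717 times, so the pools of each genotype differed by less than counting error. *Adamts15* was the most variable relative to its counts, at 5.66 times the counting variance between transgenic pools and 4.08 times between WT pools. The WT pools lay close together for *Adamts1* (0.332 times) and *Adamts9* (0.308 times), while the transgenic pools of both genes spread by 3.23 and 2.98 times. For *Adamts5* the ratios were 3.96 and 0.951. Each ratio rests on 2 or 3 pools.

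The 3 transgenic pools took the same order for *Adamts1*, *Adamts9* and *Adamts15*. Transgenic pool 2 was the lowest of the 3 for *Adamts1*, *Adamts9* and *Adamts15*, by 0.09, 0.11 and 0.21 below the group mean on the log2 scale. Transgenic pool 3 was the highest for *Adamts1*, *Adamts5*, *Adamts9* and *Adamts15*, at 0.08, 0.20, 0.06 and 0.21 above the group mean. *Adamts5* departed from this order with pool 1 the lowest at -0.16, and *Adamts12* with pool 3 the lowest at -0.05. In the WT hearts, pool 1 was the higher for *Adamts1* and *Adamts15*, and pool 2 for the other 3 genes.

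Summed over the 5 genes, expression was 246.7, 228.0 and 261.6 CPM in transgenic pools 1, 2 and 3 and 288.2 and 285.5 CPM in WT pools 1 and 2. The transgenic mean of this sum, 245.5 ± 16.8 CPM (SD, n = 3), differed by -14.4% from the WT mean of 286.8 ± 1.91 CPM (SD, n = 2). The sum follows mainly *Adamts1* and *Adamts9*, which together gave 74.1% to 76.6% of its reads in transgenic pools and 73.2% to 73.7% in WT pools. These are shares of reads, since gene lengths were not used. The share of *Adamts12* was 3.41%, 3.53% and 2.96% in transgenic pools 1, 2 and 3 and 4.62% and 5.21% in WT pools 1 and 2. *Adamts12* was thus a smaller part of the reads of these 5 genes in each transgenic pool.

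Ratios within a pool do not depend on how the libraries were scaled. Per 100 reads of *Adamts1*, the transgenic pools 1, 2 and 3 held 8.07, 8.31 and 7.13 reads of *Adamts12*, and WT pools 1 and 2 held 11.04 and 12.66. The *Adamts12* ratio was also below WT in every transgenic pool when taken to *Adamts9*, at 9.94, 10.6 and 9.12 against 14.8 and 16.0 reads per 100. Taken to *Adamts5* it was 39.8, 35.0 and 28.3 against 58.6 and 59.4 reads per 100. Against *Adamts15*, in contrast, the *Adamts12* ratios overlapped, at 29.8, 33.2 and 23.8 in transgenic pools and 32.3 and 42.4 in WT pools.

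The other ratios to *Adamts1* overlapped between the genotypes. For *Adamts15* they were 27.0, 25.1 and 30.0 reads per 100 in transgenic pools 1, 2 and 3 and 34.2 and 29.9 in WT pools 1 and 2, with transgenic pool 3 just above WT pool 2. For *Adamts9* they were 81.1, 78.4 and 78.2 against 74.8 and 79.0, and for *Adamts5* 20.3, 23.7 and 25.2 against 18.8 and 21.3. The ratio of *Adamts15* to *Adamts5* did not overlap, at 133, 106 and 119 reads per 100 in transgenic pools against 181 and 140 in WT pools. The ratios are descriptions without a test, because the genes were chosen with this comparison known.

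**Figure D3:**
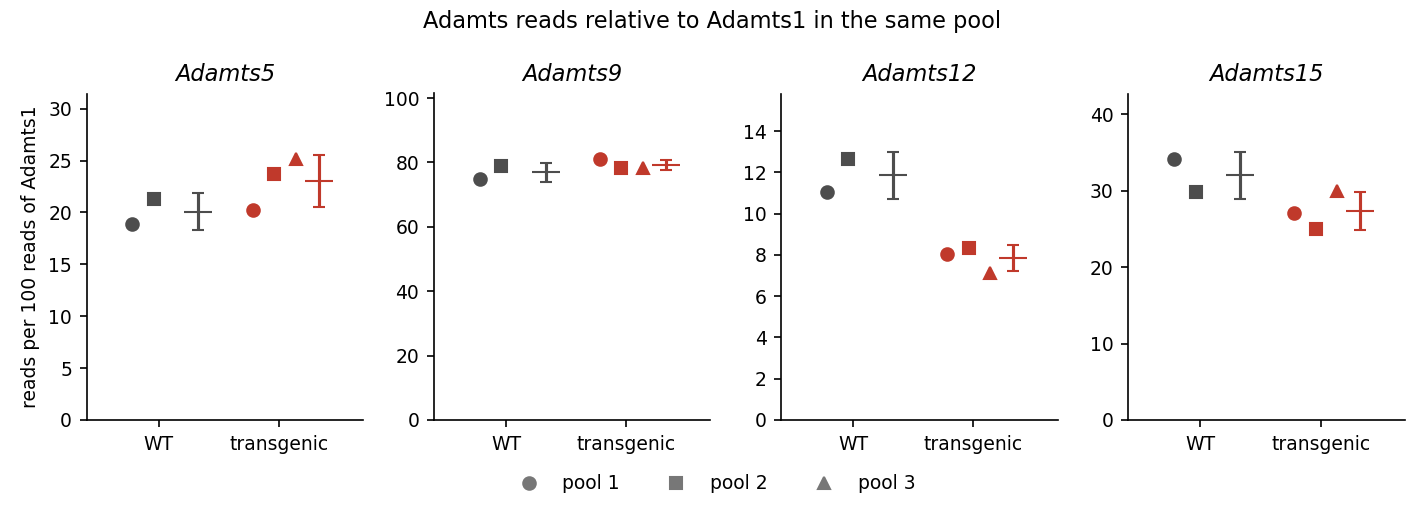
Reads of *Adamts5*, *Adamts9*, *Adamts12* and *Adamts15* per 100 reads of *Adamts1* in the same pool (vertical axis, from 0, a separate scale for each gene) in WT (grey) and transgenic (red) pools, with mean and SD. The *Adamts12* ratio is 7.13 to 8.31 in transgenic pools and 11.04 to 12.66 in WT pools without overlap, and the other 3 ratios overlap.

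The pairwise likeness of the 5 genes was measured as the root mean square difference of their log2 values over the 5 pools, each gene centred on its own mean. *Adamts1* and *Adamts9* were the most alike, at 0.037, and *Adamts5* and *Adamts12* the least, at 0.40. Among the genes with a paired name, which come from the authors' list of changed genes, *Lpp* (0.0205) and *Tnks* (0.0304) were nearest to *Adamts1*. *Amotl1* (0.0350) and *Lpp* (0.0381) were nearest to *Adamts9*. *Gria1*, a glutamate receptor subunit gene, and *Adcy1*, an adenylate cyclase gene, were nearest to *Adamts12*, at 0.0691 and 0.0658. *Galntl1* (0.0473) and *Smoc2* (0.0483), the latter encoding a matrix protein that binds calcium, were nearest to *Adamts15*. None of these listed genes came as near to *Adamts5*, for which *Dcn* (0.126) and *Cdkn1c* (0.141) were closest. The measure includes the genotype difference, and *Adamts5* had a log2 fold change of -0.01. A list of changed genes therefore had to lie farther from it, and nothing about *Adamts5* is read from this. All of these are descriptions over 5 pools that share the same genotype contrast.

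In the mouse genome (GRCm38.p6, RefSeq, whole gene spans) *Adamts1* (chr16:85793827-85803113) and *Adamts5* (chr16:85858157-85901125) are neighbours, 55043 bp apart with no other protein-coding gene between them. These neighbours had log2 fold changes of -0.21 and -0.01. *Adamts15* (chr9:30899155-30922452) lies 20109 bp from *Adamts8*, which was not analysed here. *Adamts9* (chr6:92772699-92944450) lies between *Prickle2* and *Magi1*, and *Adamts12* (chr15:11064773-11349232) between *Rxfp3* and *Tars*.

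Further genes of the same pathways could be named only where the authors' list of changed genes pairs an identifier with a symbol. The counts below thus cover genes already selected as changed in these libraries, and they are not independent evidence of a direction. Of all genes 2.82% were called in either direction and 1.59% were called lower, while of the 406 genes with a paired name 44.6% were called lower. None of 14 other *Adamts* genes was paired, and they were not analysed here.

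Both paired genes of the ADAMTS-like proteins, which lack the protease domain and bind fibrillin microfibrils, were called by limma, in opposite directions. *Adamtsl2* was 33.7 ± 4.00 CPM (SD, n = 3) in transgenic and 20.5 ± 0.246 CPM (SD, n = 2) in WT hearts (log2 fold change 0.70, SE 0.10, adjusted p 0.00139). *Thsd4*, also known as *Adamtsl6*, was 23.5 ± 1.53 against 34.9 ± 0.855 CPM, a log2 fold change of -0.56 (SE 0.09, adjusted p 0.0032). The other 5 of these 7 listed genes were not analysed here.

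Of 15 matrix substrates 2 were paired. *Fbn1*, which encodes the microfibril protein fibrillin-1, fell, with 276.5 ± 17.9 CPM (SD, n = 3) in the transgenic and 331.6 ± 8.90 CPM (SD, n = 2) in the WT group, a log2 fold change of -0.26 and a limma adjusted p of 0.0275. *Dcn*, the gene of the small proteoglycan decorin, was 167.7 ± 8.43 CPM in transgenic and 195.3 ± 14.0 CPM in WT hearts and did not pass (log2 fold change -0.22, adjusted p 0.0736).

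Of 12 inhibitors, clearance receptors and activating convertases 2 were paired, and both fell. *Reck*, which encodes a membrane-anchored inhibitor of metalloproteases, was 25.9 ± 1.62 CPM (SD, n = 3) in transgenic and 34.6 ± 2.50 CPM (SD, n = 2) in WT hearts (log2 fold change -0.41, limma adjusted p 0.0253). *Lrp1*, the gene of an endocytic receptor that takes up secreted proteases including ADAMTS5, was 132.4 ± 5.45 and 157.7 ± 11.1 CPM (log2 fold change -0.25, adjusted p 0.0432).

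Among 12 genes of hyaluronan and chondroitin matrix, 3 were paired, of which 2 rose and 1 fell. *Chsy1*, a chondroitin sulfate synthase gene, was 100.2 ± 0.922 CPM (SD, n = 3) in transgenic and 75.1 ± 5.59 CPM (SD, n = 2) in WT hearts (log2 fold change 0.42, limma adjusted p 0.00214). *Ugdh*, whose enzyme makes the UDP-glucuronate used for both glycans, was 82.9 ± 0.676 and 64.1 ± 2.09 CPM (log2 fold change 0.37, adjusted p 0.00444). *Tmem2*, the gene of a cell-surface protein that takes part in hyaluronan breakdown, was 165.4 ± 7.73 and 201.9 ± 2.65 CPM (log2 fold change -0.29, adjusted p 0.0131). Of 14 other metalloproteases only *Adam9*, a membrane-anchored protease gene, was paired, at 89.3 ± 2.72 and 107.5 ± 0.185 CPM (log2 fold change -0.27, adjusted p 0.0256).

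**Figure D4:**
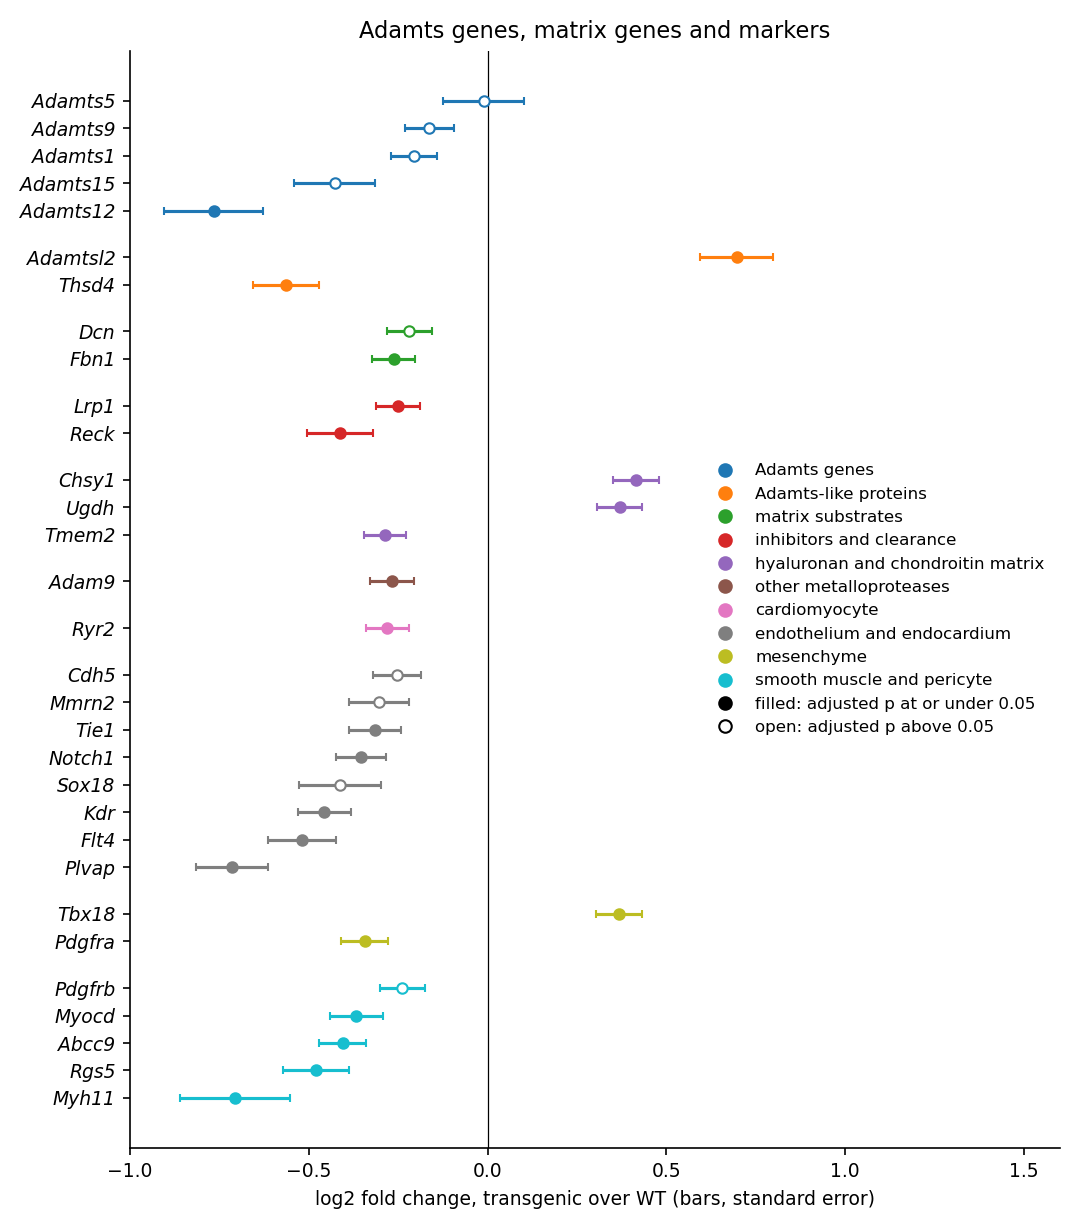
Log2 fold change, transgenic over WT (horizontal axis), with SE bars for the 5 *Adamts* genes and for each paired gene of the matrix, protease and cell type marker lists, coloured by list; filled points passed an adjusted p of 0.05 and open points did not. *Adamts12* at -0.77 and *Adamtsl2* at 0.70 lie at the ends, and the paired genes listed as endothelial and smooth muscle markers are all below 0.

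In RNA of whole ventricles and valves, fewer cells of a type and less RNA per cell cannot be told apart. On sections of hearts of the same stage, the authors counted fewer *Fabp4*-positive coronary vessels in transgenic than in WT embryos. At this stage they also measured larger trabecular and atrioventricular canal regions with more cells in transgenic hearts, and described an expanded valve territory. The heart label was checked with the cardiomyocyte marker *Ryr2*, which stood at 425.0 to 480.3 CPM in transgenic and 547.6 to 556.2 CPM in WT pools. It was the 1 of 7 listed cardiomyocyte markers with a paired name, and limma called it lower (log2 fold change -0.28, adjusted p 0.0175). The marker counts that follow stand against 1.59% of all genes called lower and 18.0% with every transgenic pool below both WT pools. Among the 406 genes with a paired name, already selected as changed, these shares were 44.6% (181 genes) and 62.6% (254 genes). Of 12 endothelial and endocardial markers 8 were paired, and in all 8 the transgenic pools were below both WT pools, with 5 called lower by limma and a median log2 fold change of -0.38. Their summed level was 638.7 to 755.6 CPM in transgenic pools and 914.4 to 917.5 CPM in WT pools. *Plvap* (log2 fold change -0.72) and *Kdr* (-0.46) were among those called.

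Of 8 genes listed as smooth muscle and pericyte markers 5 were paired, all with transgenic pools below both WT pools and 4 called lower, with a median log2 fold change of -0.41. Their summed level was 366.2 to 412.6 CPM in transgenic and 508.1 to 517.4 CPM in WT pools. In WT pools 1 and 2 *Abcc9* (207.0 and 217.7 CPM) and *Myocd* (112.7 and 114.9 CPM) gave the largest parts of it. *Myh11* gave the smallest (14.2 and 12.7 CPM). Whether *Abcc9* and *Myocd* mark only these cells in the ventricles was not tested, so the sum is that of the listed genes and not of a cell type. Of 10 markers of fibroblast, valve and epicardial mesenchyme 3 were paired: *Pdgfra* fell (log2 fold change -0.34), *Tbx18* rose (0.37) and *Dcn* did not pass, with a summed level of 344.3 to 368.7 CPM against 376.7 and 402.0 CPM. No paired marker was at 0 in any pool, and none of 5 red cell markers was paired. Within the transgenic group the summed endothelial, smooth muscle and mesenchymal levels were lowest in pool 2 and highest in pool 3. *Adamts1*, *Adamts9* and *Adamts15* took this order too, but *Adamts5* and *Adamts12* did not. The share of all genes with this order was not counted, so nothing is read from it. The single markers did not all take this order. *Plvap* and *Pdgfra* did, whereas *Cdh5* and *Kdr* were highest in transgenic pool 1. *Rgs5* was lowest in transgenic pool 1, and *Tbx18* was lowest in transgenic pool 3. The part of these cell types in the values of the *Adamts* genes was not tested.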

How the data were processed

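RNA-seq values covered 3 transgenic and 2 WT pools. The authors removed adaptors with cutadapt, quantified genes with RSEM and Bowtie over GRCm38, excluded 1 WT pool and used edgeR. They deposited counts per 1000000 reads (CPM) relative to scaled library sizes, without low genes. Columns were matched to pools by name, and 0 columns were left unused. In every pool 100% of values were whole multiples (within 0.01 reads) of 1 read's worth, which gave back the reads (7427905 to 10564780 per pool). No strand setting is given in the sources used here.

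The comparison used limma 3.58.1 in R 4.3.3 on log2(CPM + 0.5) with a variance trend (3 transgenic against 2 WT pools, no covariate, two-sided), Benjamini-Hochberg adjusted over 12857 genes at 0.05. The filter (at least 1 CPM in at least 2 pools) removed 0 genes. The fits were run on simulated counts of a single fixed dispersion to check the code, which does not measure their error rates in these data. Each p-value sets the difference against the spread between pools, each of 4 embryos. In limma this spread is drawn toward that of other genes, with the trend toward genes of similar level. For *Adamts12* the SE was 0.14 with the trend and 0.08 without it, so its p-value does not rest on its own pools alone. The 16 alternatives comprised other pseudocounts (0.1 and 1), filters (none, or a mean of at least 5 CPM) and scalings (quantile, or equal totals), no variance trend, edgeR 4.0.16 (quasi-likelihood and exact tests) and DESeq2 1.42.0 on the recovered reads, leaving out each pool in turn, and a block for pool number. Tables and figures used Python 3.11.15, pandas 2.3.3, numpy 2.4.6 and matplotlib 3.10.9.

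The genes, lists and markers were chosen with earlier results of these data known. Named genes are the 5 *Adamts* genes, every listed gene with a paired name, and for each *Adamts* gene the 2 paired genes with the smallest root mean square log2 difference. Names came from the authors' list of changed genes, which pairs 406 identifiers, and its fold changes and p-values were not used. Positions of 5 of 5 genes came from RefSeq for GRCm38.p6.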

Additional observations from a re-analysis of the deposited data

How the results depend on the processing

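The number of genes called, 362 by limma, was 10 without the variance trend (10 higher and 0 lower, with 1846 at an unadjusted p under 0.05), 229 by DESeq2 and 655 with the pool number as a block. With each pool left out in turn it ran from 43 to 464, with 226 without transgenic pool 2, 45 without WT pool 1 and 43 without WT pool 2. Where 1 WT pool remained, it was assumed to vary like the transgenic pools. Rescaling to equal totals gave 125 higher and 251 lower genes, against 157 and 205. With a mean of at least 5 CPM 394 of 11483 genes were called. The quasi-likelihood test of edgeR called 398 of 12857 genes and its exact test 485, so these 3 settings called more genes than the 362 of limma. Of the *Adamts* genes 1 was called, and the count was 2 with a mean of at least 5 CPM, with edgeR's quasi-likelihood test and with its exact test (*Adamts12* and *Adamts15*), 0 without the trend, and 0 to 2 with each pool left out. *Adamts12* kept a negative log2 fold change in all 16 alternatives (-0.84 to -0.69) and was called in 13; it was not called without the trend (adjusted p 0.0663) or without either WT pool. *Adamts1* (-0.24 to -0.16), *Adamts9* (-0.19 to -0.11) and *Adamts15* (-0.54 to -0.31) were negative in all 16 and called in 1, 0 and 5. *Adamts5* reversed to 0.070 without transgenic pool 1, 0.01 without transgenic pool 2 and 0.06 without WT pool 2. The cause of these changes was not tested. With the replicate block 3 *Adamts* genes were called (*Adamts1*, *Adamts12* and *Adamts15*). The block takes transgenic pool 3, which has no WT partner, out of the contrast. The deviations of pools with the same number had correlations across genes of -0.026 and -0.050. With 2 WT pools the WT deviations mirror each other, so these values cannot show whether such pools share more than a number. With 62 to 88 reads of *Adamts12* per transgenic pool, counting error is part of its SE.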
